A study of Mus musculus with 9 samples.

Results

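The response of G1E cells to wildtype GATA1 was measured by comparing 3 libraries of cells infected with virus carrying human wildtype GATA1 with 3 libraries of cells infected with the empty HMD vector, which are 6 of the 9 libraries in the series. G1E is a mouse erythroid progenitor line in which the Gata1 gene is not functional, so both groups lack the endogenous factor. Both groups were grown in IMDM with SCF (stem cell factor) and EPO (erythropoietin) and were infected by centrifugation with virus made in 293T cells. RNA was read by bulk Smart-seq2, and the series describes the libraries of a group as biological replicates. The labels do not give the time after infection, any selection of infected cells, or whether the line is 1 clone, so the share of cells that carried GATA1 is not known. The other 3 libraries, from cells with a human GATA1 mutant, entered the statistical model only to help estimate the spread between replicates.

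GATA1 is a zinc finger transcription factor that binds DNA at GATA sequences. It turns on the genes of hemoglobin, heme synthesis and the red cell membrane, and it takes over sites held by GATA2 in progenitors. Without it, erythroid cells stop as proliferating, Kit-positive progenitors, and restoring it lets them mature. During that maturation a cell fills with hemoglobin, rebuilds its membrane skeleton, stops dividing, condenses its nucleus and clears its organelles.

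Some promoters of responding genes are shown first, because GATA1 acts through short GATA sequences. They were chosen with the results known, from the genes that changed. Each is the RefSeq window (GRCm38.p6) before the start of transcription, written 5′ to 3′ on the strand of the gene, and capitals mark 4 hexamers on either strand: the canonical AGATAA, its variant with a last G (AGATAG), and those with a first T, which are TGATAA and the rarer spelling TGATAG. The first 5 belong to genes that rose and the last 2 to genes that fell. Those 2 are the promoters of the mast cell protease Cpa3 and the signalling adaptor Lcp2. Every printed window holds a marked hexamer, so these promoters do not stand for all genes that changed. Over the windows counted below, such a hexamer was found for 31.1% of risen and 28.0% of fallen genes with a promoter sequence.
Mybpc3, chr2:91117894-91118143, plus strand: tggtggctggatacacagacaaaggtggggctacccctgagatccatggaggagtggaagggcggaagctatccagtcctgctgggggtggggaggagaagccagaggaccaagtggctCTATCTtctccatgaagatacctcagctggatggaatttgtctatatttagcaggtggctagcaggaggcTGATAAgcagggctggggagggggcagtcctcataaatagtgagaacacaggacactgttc
Hbb-y, chr7:103853217-103853457, minus strand: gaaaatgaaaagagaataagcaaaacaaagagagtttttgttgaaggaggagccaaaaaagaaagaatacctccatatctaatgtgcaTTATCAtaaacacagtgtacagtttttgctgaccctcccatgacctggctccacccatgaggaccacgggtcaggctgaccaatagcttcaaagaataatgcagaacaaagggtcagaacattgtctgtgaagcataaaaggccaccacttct
Alas2, chrX:150547167-150547374, plus strand: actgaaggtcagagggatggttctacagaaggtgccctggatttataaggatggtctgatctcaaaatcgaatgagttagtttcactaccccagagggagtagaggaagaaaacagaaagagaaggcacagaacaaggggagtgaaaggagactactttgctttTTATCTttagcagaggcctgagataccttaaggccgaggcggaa
Rhd, chr4:134864286-134864535, plus strand: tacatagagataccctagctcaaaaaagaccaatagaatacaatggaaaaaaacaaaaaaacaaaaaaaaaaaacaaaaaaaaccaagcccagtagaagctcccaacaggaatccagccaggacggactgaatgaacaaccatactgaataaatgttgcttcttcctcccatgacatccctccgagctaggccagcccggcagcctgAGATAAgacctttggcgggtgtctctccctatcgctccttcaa
Trim10, chr17:36869324-36869573, plus strand: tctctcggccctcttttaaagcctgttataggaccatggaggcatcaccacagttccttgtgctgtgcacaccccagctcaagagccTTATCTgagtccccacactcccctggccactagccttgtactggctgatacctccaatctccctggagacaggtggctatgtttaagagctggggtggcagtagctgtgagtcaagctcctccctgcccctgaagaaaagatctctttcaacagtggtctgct
Cpa3, chr3:20242182-20242431, minus strand: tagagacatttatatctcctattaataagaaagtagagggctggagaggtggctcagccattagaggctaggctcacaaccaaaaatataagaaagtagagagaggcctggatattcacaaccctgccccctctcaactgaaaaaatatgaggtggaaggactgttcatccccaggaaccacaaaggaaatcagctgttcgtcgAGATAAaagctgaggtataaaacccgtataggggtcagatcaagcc
Lcp2, chr11:34046678-34046919, plus strand: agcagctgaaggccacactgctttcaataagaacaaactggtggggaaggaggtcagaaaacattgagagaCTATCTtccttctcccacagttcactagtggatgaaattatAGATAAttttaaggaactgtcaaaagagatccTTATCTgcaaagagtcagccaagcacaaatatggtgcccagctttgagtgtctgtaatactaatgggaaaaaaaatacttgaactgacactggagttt

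The marked hexamer begins 43 bases before the RefSeq start in Rhd and 46 bases before it in Cpa3, in both cases as AGATAA on the strand of the gene. In Mybpc3, 2 hexamers begin 131 and 61 bases before the start. Over windows from 250 bases before to 50 bases after the start, at least 1 of the 4 hexamers on either strand was found in 163 of the 524 risen genes with a promoter sequence, or 31.1%. The share was 28.0% among 472 fallen genes, 21.9% among all 7641 tested genes with a sequence and 33.0% among all 27025 genes of the promoter table. It was 41.8% (51 of 122) among genes that rose at least 4-fold. Genes with several promoters have more chances of a match. Among genes with exactly 1 promoter, a restriction chosen after seeing the data, the shares were 24.5% of risen, 20.4% of fallen and 18.1% of tested genes. The letters CCACACCC, the core of the box bound by Klf1, were in 6.11% of risen, 6.57% of fallen, 4.70% of tested and 4.09% of all promoters.

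Human GATA1 RNA matched the labels. It stood at 816, 715 and 921 CPM (counts per library scaled to 1 common total, here over all rows) in the wildtype libraries and at 0, 0.143 and 0 CPM in the empty vector libraries, where the 0.143 was 2 counts. Totals of the 6 libraries ran from 11364358 to 15052013 counts, at which 3 counts, the limit that a count of 0 allows, came to between 0.199 and 0.264 CPM. Replicate 3 of the wildtype group stood apart in that 1.23% of its counts were on mitochondrially encoded genes, against 0.313 to 0.601% in the other 5 libraries. A row that takes reads of ribosomal RNA, Gm42418, held 11407, 12076 and 10981 CPM with wildtype GATA1 and 8255, 7765 and 7404 CPM with the empty vector. The part of these technical readings in the results below was not tested. Levels below are CPM on library sizes scaled by the TMM method, and they are shares of the RNA of each library, not amounts per cell.

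In edgeR's quasi-likelihood test with Benjamini-Hochberg adjustment, 1137 of 9978 tested genes were higher with wildtype GATA1 (11.4%) and 1186 were lower (11.9%) at an adjusted p under 0.05. Without empty vector replicate 2 these counts were 717 and 700, and without wildtype replicate 1 there were 704 lower genes. "Rose" and "fell" are therefore used below only for genes called with all libraries and again, in the same direction, in each of 9 fits that left out 1 library. By this rule 677 genes rose (6.78% of those tested) and 626 fell (6.27%). Counts of list members given below are read against these shares. The CPM ranges of the groups did not overlap for 32.6% of all tested genes, and a gene described below as having groups that do not overlap is read against that share. Fitted to only the 6 libraries the same rule left 379 falls, and with offsets for gene length and GC content it gave 1139 rises and 1176 falls.

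The largest changes were mostly rises. The median log2 fold change was 1.12 over the risen genes and −1.0 over the fallen genes, against −0.04 over all tested genes. At least 4-fold changes were seen for 164 risen and 66 fallen genes, and at least 16-fold changes for 50 and 2. A total of 25 genes rose from a mean under 1 CPM to a mean of at least 5 CPM, and 2 genes made the reverse change. Changes were found at all levels of expression: the risen share was 6.51% in the lowest of 5 equal groups of tested genes by mean CPM and 7.62% in the highest, and the fallen share 7.87% and 5.21%.

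**Figure D1:**
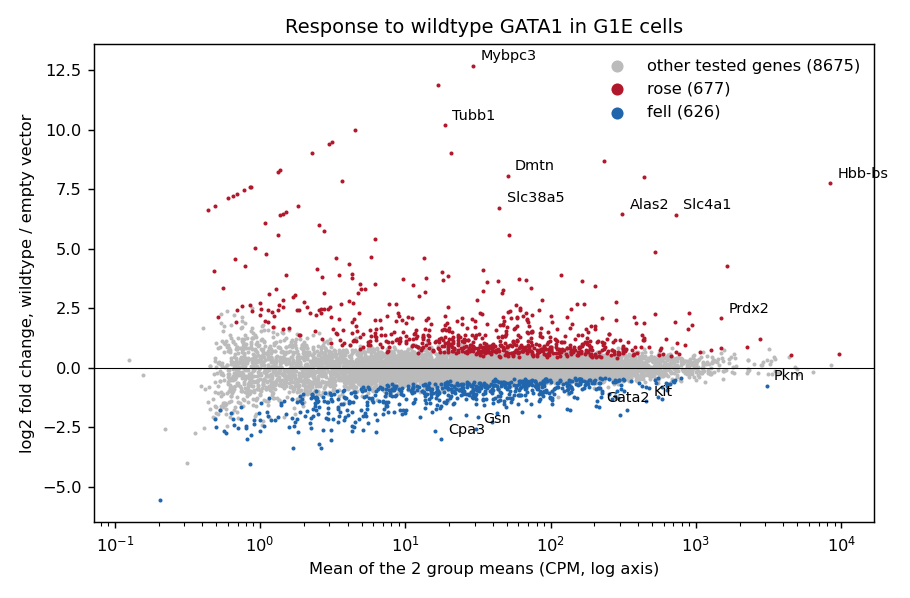
Log2 fold change (wildtype GATA1 over empty vector) of each tested gene against the mean of the 2 group means in CPM on a log axis, with genes that rose in red, genes that fell in blue and all others in grey. The 50 rises of at least 16-fold stand far above the 2 falls of that size, and Hbb-bs is both among the largest rises and at the right edge of the plot.

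Most of the gained RNA came from few genes. Summed over the genes that rose, the mean level was 76441 CPM higher with wildtype GATA1, and 15 genes made 50% of this gain. Globin genes took 28.8% of it and Hbb-bs alone 21.7%. Outside the globins the largest gain was that of Gm42418, the row that takes ribosomal RNA reads (3680 CPM). It was followed by Gpx1 (glutathione peroxidase, 2177 CPM), Prdx2 (peroxiredoxin 2, 1854 CPM), Fth1 (ferritin heavy chain, 1627 CPM), Slc4a1 (the band 3 anion exchanger, 1424 CPM) and Ftl1 (ferritin light chain, 1320 CPM). The loss of 25845 CPM over the fallen genes was spread more widely, with 55 genes making 50% of it. Pkm, the pyruvate kinase of proliferating cells, lost 1567 CPM and Lgals9 (galectin 9) 501 CPM. Hmgcs1 (sterol synthesis) lost 444 CPM, Kit (the receptor for stem cell factor) 413 CPM, Scd2 (fatty acid desaturation) 398 CPM and Limd2, a LIM domain protein, 366 CPM.

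As a share of the counts of each library, globin genes took 2.24, 2.48 and 1.61% with wildtype GATA1 and 0.0294, 0.0263 and 0.0303% with the empty vector. All wildtype libraries were above all empty vector libraries, and the exact two-sided permutation test gave p = 0.1, the smallest that 3 against 3 libraries allow. Wildtype replicate 3 had the lowest globin share of its group. The globin-free remainder of the risen genes took 10.4 ± 0.546% of the counts with wildtype GATA1 and 5.55 ± 0.159% with the empty vector (SD, n = 3), and the fallen genes took 3.18 ± 0.272% and 6.01 ± 0.325%. These genes were chosen for their change, so the latter shares only describe its size.

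**Figure D2:**
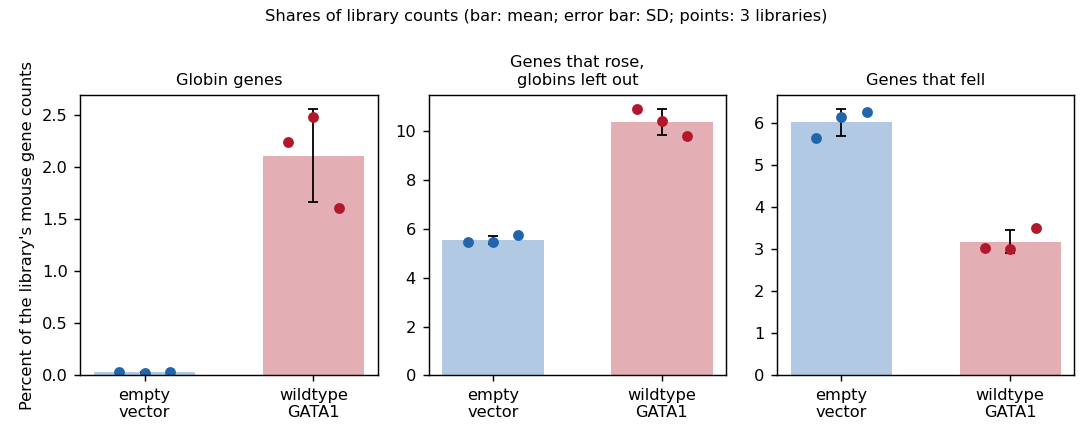
Percent of the mouse gene counts of each library on globin genes, on risen genes without the globins and on fallen genes; bars are means, error bars SD and points the 3 libraries of a group. The globin share of the wildtype libraries lies between 1.61 and 2.48%, and the empty vector bar is near 0.

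Every tested globin gene rose, 9 of 9, at adjusted p-values up to 0.000739, embryonic genes included. Hbb-bs, the major adult beta-globin, held 17585, 21400 and 11087 CPM with wildtype GATA1 and 85.8, 64.7 and 79.6 CPM with the empty vector, and it took more counts than any other gene in each wildtype library. The adult genes come in near-identical copies whose reads the counting may have split in different ways, so sums are given. Hbb-bs and Hbb-bt together had a mean of 17700 ± 5365 CPM against 111 ± 20.6 CPM (SD, n = 3), a ratio of 159. The adult alpha-globins Hba-a1 and Hba-a2 together stood at 4208, 4027 and 3757 CPM against 157, 160 and 184 CPM, a ratio of 24.0. The sum was steady between replicates, while the share given to Hba-a2 was 12.4, 14.1 and 40.4% in wildtype replicates 1, 2 and 3, so the single copies are uncertain. Without wildtype replicate 3 the log2 fold change of Hba-a2 was 7.35 in place of 8.03.

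Embryonic globins, which are transcribed in the first wave of red cells in the yolk sac, were nearly undetected with the empty vector. Hbb-bh1 held 566, 554 and 268 CPM with wildtype GATA1 and 1.39, 0.979 and 0.966 CPM with the empty vector. Hbb-y, the embryonic epsilon-type gene whose promoter is printed above, held 49.4, 47.4 and 26.4 CPM against 3 counts in all, a ratio of 596 with a counting interval of 204 to 2895 (95%, Clopper-Pearson). Without empty vector replicate 1 its log2 fold change was 9.92 in place of 9.04. Hba-x, the zeta-globin (chromosome 11, 32276400 to 32278116), held 47.7, 29.0 and 23.2 CPM against 0 counts and was at least 482-fold higher, taking the floor of 3 counts over the group. The theta-type gene Hbq1b held 36.1, 40.9 and 24.4 CPM against 2.42, 2.80 and 2.64 CPM. The 4 tested genes from Hba-x to Hba-a2 on chromosome 11 and the 5 from Hbb-bt to Hbb-y on chromosome 7 (103812524 to 103853216) all rose.

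**Figure D3:**
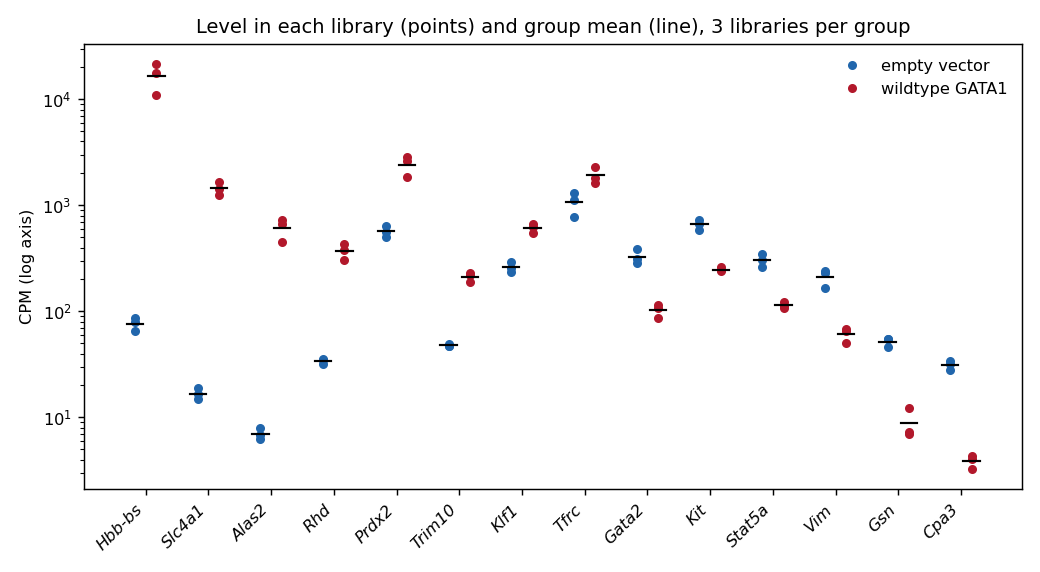
Level in CPM on a log axis of 14 genes in each library, with empty vector points in blue, wildtype GATA1 points in red and black lines at the group means. All genes shown are among those that rose or fell, and red and blue points do not overlap for any of them. They do not stand for all tested genes, of which 32.6% had groups that do not overlap. The distance is widest for Hbb-bs, Slc4a1 and Alas2 and narrow for Tfrc.

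Of 24 tested genes for making, moving and degrading heme, 16 rose (adjusted p up to 0.00079), and the median log2 fold change of the list was 1.55. Along the pathway, Alas2, the erythroid enzyme that makes the first precursor, held 726, 669 and 450 CPM with wildtype GATA1 and 7.92, 6.22 and 6.76 CPM with the empty vector. Its housekeeping relative Alas1 held 18.5, 19.9 and 19.7 CPM against 26.0, 20.4 and 27.2 CPM and did not pass (adjusted p = 0.113 in edgeR). The erythroid and the housekeeping enzyme of this step thus had changes of opposite sign, and only the former passed.

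The enzymes of the next steps had smaller log2 fold changes than Alas2 (6.46 ± 0.21, SE). Alad held 1679, 1636 and 1159 CPM against 288, 281 and 325 CPM, a log2 fold change of 2.32 ± 0.16. Urod (uroporphyrinogen decarboxylase) rose by 1.89 ± 0.16, Uros by 1.61 ± 0.15 and Ppox by 1.49 ± 0.11 on the log2 scale. Fech, which inserts the iron, rose by 0.68 ± 0.11. Cpox, the enzyme just before Ppox, was the pathway enzyme without a call beside Alas1: it held 103, 91.1 and 133 CPM against 117, 93.1 and 71.5 CPM, with overlapping groups and an adjusted p of 0.385 in edgeR.

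Carriers that serve the pathway were higher in part. Slc6a9, the glycine transporter at the plasma membrane, held 29.7, 22.4 and 25.4 CPM against 0.954, 1.26 and 0.966 CPM. Slc25a38, the glycine carrier of the mitochondrion, rose by 1.68 ± 0.16 on the log2 scale, so both carriers of this Alas2 substrate were higher. Abcb10 (2.12 ± 0.11) and Tmem14c (1.92 ± 0.15), mitochondrial membrane proteins needed for heme synthesis, and Hebp1 (3.22 ± 0.22), a heme-binding protein, rose as well, as did Slc25a39 (1.39 ± 0.16) and Fam210b (1.2 ± 0.11). The heme exporter Mfsd7b (−0.09 ± 0.22) and the porphyrin exporter Abcg2 (−0.19 ± 0.13) were not called. Blvrb, biliverdin reductase B, held 1538, 1787 and 1028 CPM against 438, 360 and 442 CPM.

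Of 24 tested genes of iron handling, 10 rose and 2 fell, with a median log2 fold change of 0.24. Among all tested genes 6.78% rose and 6.27% fell. Fam132b (erythroferrone, the hormone by which erythroid cells call for iron) held 106, 100 and 100 CPM against 1.54, 1.89 and 2.96 CPM. Slc25a37, the mitochondrial iron importer mitoferrin, held 321, 243 and 347 CPM against 22.3, 26.4 and 25 CPM. The groups of both genes were far apart.

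Genes of uptake and storage changed less than 2-fold. Tfrc, the transferrin receptor, held 1828, 1620 and 2287 CPM against 1309, 1132 and 778 CPM, a log2 fold change of 0.83 ± 0.19. Steap3, which reduces the iron in the endosome, rose by 0.78 ± 0.13, Ftl1 by 0.87 ± 0.17 and Fth1 by 0.53 ± 0.11. Genes of iron-sulfur cluster assembly that rose were Glrx5 (1.12 ± 0.14), Isca1 (0.79 ± 0.11), Bola3 (0.77 ± 0.15) and Iscu (0.70 ± 0.14). The falls were those of Aco1, the iron-sensing aconitase (−0.52 ± 0.11), and Pcbp1, an iron chaperone (−0.46 ± 0.11). With DESeq2 or RLE factors the falls of the list numbered 1, and with only the 6 libraries neither passed in every fit.

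Of 26 tested membrane channels, transporters and blood group antigens, 16 rose and 1 fell, and the median log2 fold change was 0.75. Slc4a1 (chromosome 11, 102348824 to 102366203), the main protein of the red cell membrane, held 1671, 1242 and 1410 CPM with wildtype GATA1 and 14.8, 16.5 and 18.9 CPM with the empty vector. Rhd, the Rh antigen, held 429, 381 and 307 CPM against 34.9, 31.9 and 35.6 CPM. Its partner Rhag was already at 248, 244 and 211 CPM with the empty vector and reached 360, 323 and 353 CPM, a log2 fold change of 0.56 ± 0.11. Members of the Rh complex thus differed in size of change, with no overlap of the groups in either.

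Other blood group carriers that rose were Icam4 (2.16 ± 0.16), Kel (1.41 ± 0.15), the urea transporter Slc14a1 (1.45 ± 0.18), Ermap (0.93 ± 0.13), Gypc (0.80 ± 0.10) and Art4 (0.70 ± 0.15). Among channels and pumps, Aqp3 (water and glycerol) rose by 3.74 ± 0.14, the sodium pump subunit Atp1b2 by 2.78 ± 0.16 and the potassium channel Kcnn4 by 1.06 ± 0.15. Car2, carbonic anhydrase 2, held 3625, 3244 and 3312 CPM against 4090, 4041 and 3709 CPM and did not pass (adjusted p = 0.157 in edgeR). Aqp1 had 0 counts in the 6 libraries.

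Of 21 tested genes of the membrane skeleton, 11 rose and 4 fell. Among the spectrins and the adducins, members of the same family differed in sign. Dmtn, dematin, held 124, 91.7 and 88.6 CPM with wildtype GATA1 and 0.367, 0.280 and 0.451 CPM with the empty vector. Sptb, the erythroid beta-spectrin, rose from 145, 182 and 230 CPM to 761, 588 and 739 CPM. The general spectrins Sptan1 (−1.56 ± 0.28) and Sptbn1 (−1.15 ± 0.16) fell.

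Of the adducins, Add2, the red cell beta-adducin, rose by 1.18 ± 0.14 and Add1 by 0.55 ± 0.12, while Add3 had a log2 fold change of −1.01 ± 0.12. Tpm3 was the remaining fall of the list. Ank1 (ankyrin, 2.05 ± 0.20), Epb42 (protein 4.2, 2.38 ± 0.13), Tmod1 (tropomodulin, 2.84 ± 0.19), Mpp1 (1.42 ± 0.11) and Tmcc2 (3.89 ± 0.16) rose. Tubb1, a beta-tubulin known from platelets, held 41.9, 40.8 and 29.1 CPM against 1 count in all, a ratio of 1623 with a counting interval of 291 to 64139. Its log2 fold change was 12.04 in place of 10.19 without empty vector replicate 2, the library with that count.

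Of 29 tested erythroid factors, 6 rose and 2 fell, with a median log2 fold change of 0.23, where 6.78% of all tested genes rose and 6.27% fell. Klf1, which works beside GATA1 at globin and membrane genes, held 661, 631 and 553 CPM with wildtype GATA1 and 235, 254 and 291 CPM with the empty vector. The others that rose were E2f2 (1.33 ± 0.14), Klf3 (1.22 ± 0.26), Sox6 (1.15 ± 0.17), Mafk (0.99 ± 0.11) and the LIM-binding cofactor Ldb1 (0.95 ± 0.14). Ets2 (−1.22 ± 0.13) and Nr3c1, the glucocorticoid receptor that sustains progenitor growth (−0.97 ± 0.18), fell.

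Tal1, a partner of GATA1 in DNA-bound complexes, held 123, 103 and 105 CPM against 89.7, 80.4 and 91.8 CPM, a log2 fold change of 0.34 ± 0.11 whose adjusted p of 0.0495 in edgeR was lost in other fits. Gfi1b (0.33 ± 0.12), Nfe2 (0.08 ± 0.14) and Foxo3 (0.57 ± 0.16) were not called in every fit. The mouse Gata1 row held 45.8, 51.0 and 44.6 CPM against 40.0, 37.0 and 41.8 CPM (adjusted p = 0.139). The sources used here do not say which part of the gene the disruption removed, so this row checks nothing. With length and GC offsets 11 factors rose and 4 fell.

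Of 15 tested progenitor regulators, 6 fell, with a median log2 fold change of −0.53. Gata2, the GATA factor of progenitors, held 107, 86.8 and 114 CPM with wildtype GATA1 and 283, 385 and 314 CPM with the empty vector. Kit held 245, 238 and 261 CPM against 590, 670 and 722 CPM. Myb, a factor of proliferating progenitors, held 32.8, 34 and 44.6 CPM against 78.4, 92.3 and 75.6 CPM. For these genes every wildtype library was below every empty vector library, and wildtype levels stayed well above the counting floor. Hhex (−1.54 ± 0.14), Zfp36l2 (−1.02 ± 0.13) and Ikzf2 (−2.18 ± 0.41) fell too, and the last had −3.18 without wildtype replicate 3. Myc held 423, 454 and 441 CPM against 521, 644 and 737 CPM, a log2 fold change of −0.53 ± 0.13 that was not called in every fit.

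Genes downstream of the erythropoietin and stem cell factor receptors moved in both directions: of 34 tested members 7 rose and 11 fell. Epor, the erythropoietin receptor, held 324, 349 and 269 CPM with wildtype GATA1 and 142, 144 and 173 CPM with the empty vector. Its transducer Stat5a held 112, 108 and 123 CPM against 260, 307 and 347 CPM. Stat5b (−0.58 ± 0.11) and Stat3 (−1.03 ± 0.12), its neighbours on chromosome 11 between 100780731 and 100939540, fell as well. The receptor and its transducers therefore had changes of opposite sign.

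Targets of STAT5 did not move as 1 group. Cish, a feedback inhibitor, held 179, 165 and 197 CPM against 67.5, 72.3 and 77.2 CPM, Socs3 rose by 1.33 ± 0.26 and the survival kinase Pim1 by 0.61 ± 0.10, while Socs2 fell by 0.69 on the log2 scale (SE 0.11). Jak2, the kinase bound to the receptor, held 13.2, 9.53 and 20.4 CPM against 16.1, 24.6 and 10.8 CPM, with overlapping groups. Among adaptors, kinases and phosphatases of Kit and antigen receptor signalling, the adaptor Gab1 rose (0.90 ± 0.19) and Btk, Lyn, Gab2 and Dok1 were not called in every fit. Tec (−2.65 ± 0.19), Dok2 (−1.38 ± 0.28), Grb2 (−1.03 ± 0.12), Ptpn6 (−0.88 ± 0.15) and Pik3cd (−0.71 ± 0.16) fell. The near-identical Csf2rb and Csf2rb2, beta chains of the IL-3 receptor family, together had 160 ± 21.8 CPM against 74.2 ± 16.1 CPM (SD, n = 3). With only the 6 libraries 7 members of this list fell.

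Summed levels of mast cell, megakaryocyte and granulocyte markers were lower with wildtype GATA1, and those of granulocyte markers were low in both groups. In bulk RNA, fewer cells of a type and less RNA per cell cannot be told apart. A marker low with wildtype GATA1 could pass the low-count filter through the other libraries. The shares of tested markers that fell are therefore tilted towards falls, while the summed levels cover tested and untested markers. Of 20 mast cell markers 10 were tested, 5 fell and 1 rose, and their summed level was 54.1 to 80.8 CPM with wildtype GATA1 and 176 to 246 CPM with the empty vector; Mcpt8, Mcpt4, Tpsb2 and Mitf had 0 counts in the 6 libraries. Cpa3 held 4.32, 4.04 and 3.25 CPM against 34, 32 and 28.1 CPM, and Il1rl1, the IL-33 receptor, 23.6, 29.7 and 28.0 CPM against 113, 104 and 81.4 CPM. Mcpt2, a mast cell protease, went the other way, from 2 counts in all to 3.12, 2.79 and 1.84 CPM.

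Of 20 megakaryocyte markers 10 were tested and 8 fell, with summed levels of 106 to 159 CPM against 274 to 319 CPM and with Gp1bb, Vwf, Selp, Clec1b and Thbs1 at 0. Pf4 held 6.48, 9.15 and 7.03 CPM against 28.8, 26.7 and 19.4 CPM, and the integrins Itga2b (−0.89 ± 0.19) and Itgb3 (−1.47 ± 0.26) fell. The fall of these markers contrasts with the rise of Tubb1. Of 22 granulocyte and monocyte markers 6 were tested and 3 fell (Fcgr3, Tyrobp and Cebpe), with summed levels of 4.53 to 5.01 CPM against 13.4 to 15 CPM, and 11 of the 22, Elane, Ctsg and S100a8 among them, were at 0. With a filter of 5 CPM in 3 libraries edgeR left 0 of these granulocyte falls, where without it 4 members had an unadjusted p under 0.05 and DESeq2 called 2 in every fit. Tyrobp had −3.31 in place of −2.54 without wildtype replicate 2. Of 18 lymphoid markers 2 were tested and Gata3 fell (−2.28 ± 0.26), with summed levels of 7.73 to 10.3 CPM against 12.2 to 13 CPM and 11 of the 18 at 0. The other tested marker, Lck, went the other way (0.74 ± 0.24) but was not called in every fit. It held 7.2, 9.15 and 6.06 CPM against 4.18, 3.84 and 5.34 CPM.

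**Figure D4:**
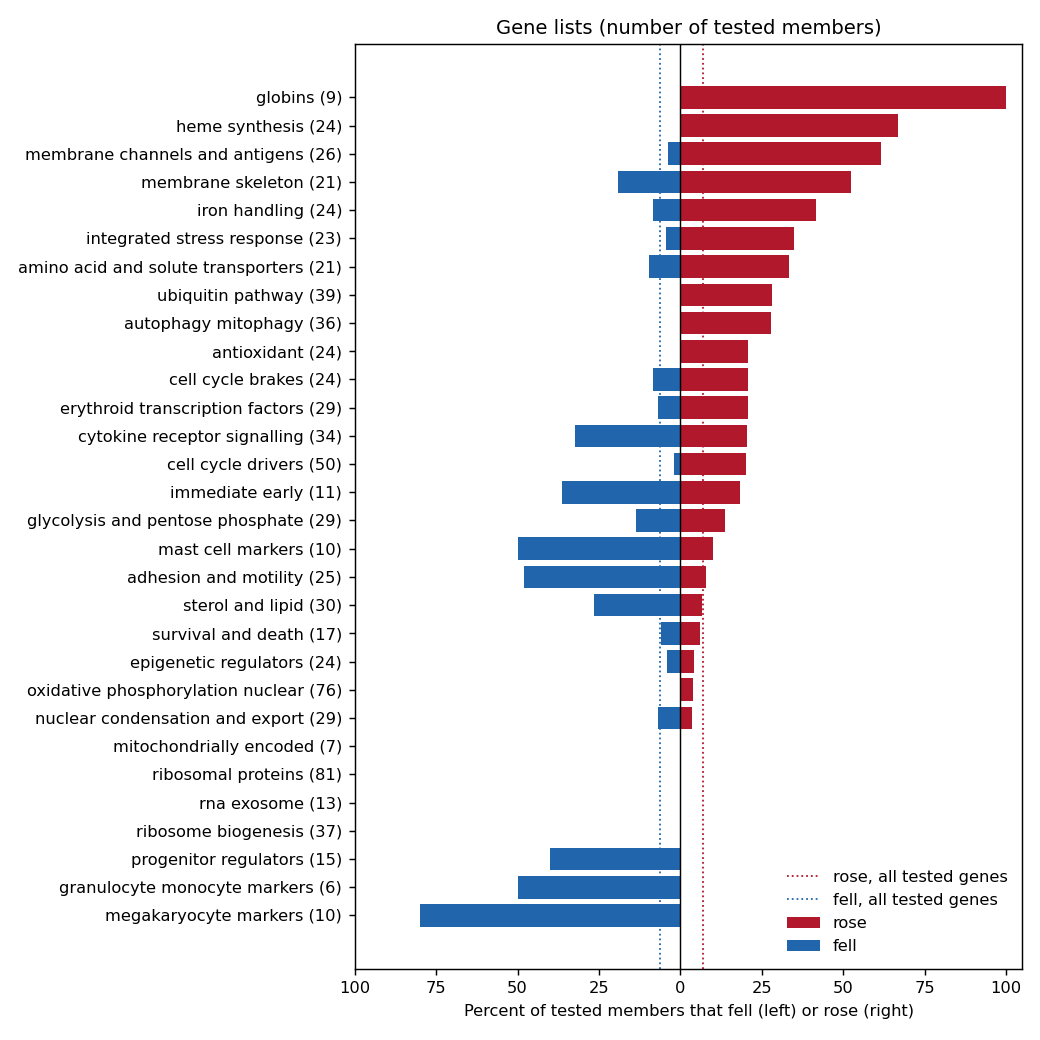
Percent of the tested members of each gene list that rose (red, to the right) or fell (blue, to the left), with the number tested in brackets and dotted lines at the shares over all tested genes, 6.78% and 6.27%. The bars of globins and heme synthesis reach farthest to the right and those of megakaryocyte, mast cell and granulocyte markers farthest to the left. Genes low in either group could pass the filter through other libraries, which tilts the shares of lists with low members towards change. The lymphoid list, with 2 tested members, is not drawn.

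Of 25 tested genes of adhesion and motility 12 fell and 2 rose, and the list had a median of −0.61 on the log2 scale. Gsn, gelsolin, which cuts actin filaments, held 6.96, 12.2 and 7.29 CPM with wildtype GATA1 and 45.8, 55.2 and 54.9 CPM with the empty vector. Coro1a (−1.54 ± 0.21), Lcp1 (−1.51 ± 0.22), Msn (moesin, −0.82 ± 0.11), Flna (filamin A, −0.83 ± 0.15) and Vav1 (−0.91 ± 0.13), all proteins of the actin cortex or its control, fell. Vim, vimentin, held 49.8, 68.0 and 64.7 CPM against 167, 229 and 238 CPM. Cd36 rose, from 0.367, 0.699 and 0.579 CPM to 4.48, 4.43 and 6.06 CPM. Cd44, a surface marker used to stage erythroblasts, held 89.6, 83.8 and 112 CPM against 137, 146 and 117 CPM and was not called in every fit.

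Most tested genes that brake or drive division were not called in every fit, as was so for 8675 of all 9978 tested genes. Of 24 tested brakes 5 rose and 2 fell, and of 50 tested drivers 10 rose and 1 fell. Among all tested genes 6.78% rose and 6.27% fell. Btg2, an antiproliferative gene, held 94.4, 75.2 and 86.1 CPM with wildtype GATA1 and 8.29, 9.72 and 8.82 CPM with the empty vector, and the Myc antagonist Mxd1 held 111, 85.5 and 89.2 CPM against 21.1, 22.8 and 21.6 CPM. Gadd45a (1.57 ± 0.21), Mxd3 (1.33 ± 0.21) and Gadd45g (1.21 ± 0.22) rose as well. The brakes that fell were Pdcd4 and Ccng2, the latter at 5.44, 3.66 and 10.4 CPM against 35.4, 18.9 and 17.8 CPM (−1.88 ± 0.37). The best known inhibitors of the cyclin-dependent kinases did not pass: Cdkn1a held 176, 180 and 174 CPM against 170, 203 and 194 CPM, and Cdkn1b 21.1, 18.7 and 28.2 CPM against 30.8, 18.5 and 10.6 CPM.

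D-type cyclins, which start the cycle, moved in opposite directions. Ccnd3, cyclin D3, held 1108, 971 and 912 CPM against 416, 506 and 552 CPM, while Ccnd2, cyclin D2, held 468, 496 and 556 CPM against 733, 854 and 878 CPM. Neither pair of groups overlapped. Ccne1 (cyclin E1) rose by 1.77 ± 0.11, Ccna2 by 0.52 ± 0.10 and Ccnb2 by 0.56 ± 0.11, and Cdc25b, a phosphatase that starts mitosis, held 118, 95.7 and 87.4 CPM against 14.6, 16.6 and 17.7 CPM. Cdk6 held 186, 171 and 282 CPM against 247, 311 and 321 CPM and did not pass. With only the 6 libraries 5 drivers rose.

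Genes tied to nuclear condensation and expulsion were mostly not called: of 29 tested members 1 rose and 2 fell, with a median log2 fold change of −0.04, equal to that of all tested genes. Xpo7, a nuclear export factor, held 104, 75.7 and 89.9 CPM with wildtype GATA1 and 66.6, 71.2 and 79.2 CPM with the empty vector and did not pass (adjusted p = 0.106 in edgeR). Lmnb1 (lamin B1, −0.25 ± 0.10) and Setd8, the H4 methyltransferase (0.14 ± 0.12), did not pass either. Cit, citron kinase, rose by 1.08 ± 0.18, and Vim was 1 of the 2 that fell. Of 24 tested epigenetic regulators only Kdm7a rose (1.87 ± 0.34) and only Dnmt3b fell (−0.97 ± 0.13), where 6.78% and 6.27% of all tested genes did. Ezh2 held 63.9, 49.8 and 65.2 CPM against 69.6, 60.7 and 49.2 CPM.

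Of 39 tested genes of the ubiquitin pathway 11 rose, and the median log2 fold change was 0.38. Trim10, an erythroid ubiquitin ligase whose promoter is printed above, held 231, 219 and 188 CPM with wildtype GATA1 and 49.4, 47.1 and 46.7 CPM with the empty vector. Ube2l6 held 241, 236 and 173 CPM against 64.3, 59.8 and 60.3 CPM, Mkrn1 rose by 1.71 ± 0.14 and Fbxo7 by 0.88 ± 0.11. Ube2o, which marks ribosomal proteins for destruction in late red cells, held 39.4, 32.0 and 34.9 CPM against 14.0, 15.8 and 18.0 CPM, and Ube2h 28.0, 23.0 and 31.2 CPM against 12.2, 16.4 and 13.1 CPM. With length and GC offsets 18 members rose.

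Of 36 tested autophagy genes 10 rose, and the list had a median of 0.28 on the log2 scale. They came from the ATG4 proteases (Atg4d, 1.76 ± 0.17, Atg4a, 1.08 ± 0.18, and Atg4b, 0.76 ± 0.12) and their substrates (Map1lc3b, 1.01 ± 0.13, Gabarap, 0.75 ± 0.12, and Gabarapl2, 0.70 ± 0.15), and included Atg9a (1.37 ± 0.16) and Wipi1 (1.37 ± 0.17). Bnip3l, the receptor that takes mitochondria to autophagosomes, held 356, 443 and 473 CPM against 445, 358 and 238 CPM, with overlapping groups. Ctsb, the lysosomal protease cathepsin B, held 996, 882 and 727 CPM against 192, 178 and 176 CPM.

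All 81 tested ribosomal protein genes had a positive log2 fold change, with a median of 0.32, but in edgeR 0 were called in every fit, 5 passed with all libraries, 25 had an unadjusted p under 0.05 and 1 was called in every fit by DESeq2. Of all 9978 tested genes, 3639 had an unadjusted p under 0.05 in edgeR and 11.4% were higher by adjusted p with all libraries. As a share of library counts the ribosomal protein genes took 8.35, 10.3 and 7.03% with wildtype GATA1 and 7.68, 6.50 and 7.51% with the empty vector, so the groups overlapped (exact two-sided permutation p = 0.3). Of 37 tested ribosome biogenesis genes 0 were called in every fit by edgeR or DESeq2 and 10 had an unadjusted p under 0.05, with a median of −0.21; nucleolin, Ncl, held 3029, 2402 and 3126 CPM against 2979, 3834 and 3487 CPM. Genes of the RNA exosome, a complex that degrades RNA, had a median of 0.03 over 13 members, with 0 called by edgeR or DESeq2 and 0 at an unadjusted p under 0.05.

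Of 76 tested nuclear genes of oxidative phosphorylation 3 rose (Atp5e, 0.98 ± 0.20, Ndufb9, 0.85 ± 0.18, and Ndufa6, 0.59 ± 0.12), 23 passed with all libraries and 72 had a positive log2 fold change. Over all tested genes 6.78% rose, 11.4% were higher by adjusted p with all libraries and 4573 of 9978 had a positive log2 fold change. DESeq2 called 10 of the list in every fit, and edgeR without a filter on low counts 14. The mitochondrially encoded mt-Co1 held 553, 529 and 1546 CPM against 501, 543 and 421 CPM, so 1 wildtype library, replicate 3, was far above the others. In edgeR 0 of the 7 tested mitochondrial transcripts were called, as in DESeq2, and 0 had an unadjusted p under 0.05.

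Of 29 tested genes of glycolysis and the pentose phosphate pathway 4 rose and 4 fell, and isoenzymes of 1 step differed in sign. Pklr, the red cell pyruvate kinase, held 392, 377 and 343 CPM with wildtype GATA1 and 127, 135 and 153 CPM with the empty vector, while Pkm held 1811, 2587 and 2443 CPM against 3402, 3676 and 4463 CPM. The phosphofructokinase Pfkm rose by 1.11 ± 0.13 and Pfkp had −0.58 ± 0.12. Bpgm, which makes the 2,3-bisphosphoglycerate that tunes oxygen binding, held 124, 119 and 90.7 CPM against 40.3, 37.0 and 37.5 CPM. Hexokinases differed, with Hk2 falling (−1.26 ± 0.21) and Hk1 at 0.01 ± 0.15. The falls numbered 10 with length and GC offsets and 2 with only the 6 libraries.

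Of 21 tested solute carriers 7 rose and 2 fell, where 6.78% of all tested genes rose and 6.27% fell. Slc38a5, a glutamine and glycine transporter, held 102, 74.3 and 87.7 CPM with wildtype GATA1 and 0.660, 0.629 and 1.16 CPM with the empty vector. Slc7a8, an amino acid exchanger outside the list, held 102, 115 and 142 CPM against 371, 485 and 573 CPM, and Slc3a2, the heavy chain such exchangers share, fell by 0.75 on the log2 scale (SE 0.12). Of 30 tested genes of sterol and lipid synthesis 8 fell and 2 rose, with a median of −0.40: Hmgcs1 held 276, 304 and 389 CPM against 857, 805 and 640 CPM and Scd2 366, 374 and 557 CPM against 770, 865 and 856 CPM. The sterol exporter Abca1 fell as well (−1.77 ± 0.21), while Insig1, which holds back sterol synthesis (1.03 ± 0.25), and Pcyt1a, of phosphatidylcholine synthesis (0.53 ± 0.12), rose. With only the 6 libraries the falls numbered 4 and neither rise passed in every fit.

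Of 23 tested genes of the integrated stress response, the program that slows translation, 8 rose and 1 fell. Among all tested genes 6.78% rose and 6.27% fell. Eif2ak1, the heme-regulated kinase that starts it in erythroid cells, held 258, 190 and 218 CPM with wildtype GATA1 and 73.3, 90.2 and 90.4 CPM with the empty vector. Its downstream factor Ddit3 held 98.1, 89.9 and 67.6 CPM against 15.8, 17.2 and 17.5 CPM, and Ppp1r15a, which ends the response, 144, 129 and 95.9 CPM against 24.6, 26.9 and 27.1 CPM. Trib3 (2.29 ± 0.22), Atf5 (1.42 ± 0.24) and Mthfd2 (1.06 ± 0.11) rose. Not all targets moved, since Asns held 1254, 1156 and 1017 CPM against 1260, 1310 and 1349 CPM, and Atf4 itself (0.41 ± 0.11) was not called in every fit.

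Of 11 tested immediate early genes 2 rose and 4 fell. Dusp1, a phosphatase of MAP kinases, held 125, 127 and 125 CPM against 9.76, 9.86 and 10 CPM, and Junb rose by 0.73 ± 0.13, while Egr1 held 14.6, 12.7 and 17.9 CPM against 30.1, 41.0 and 40.6 CPM. Of 24 tested antioxidant genes 5 rose. Prdx2, which removes peroxide in red cells, held 2598, 2843 and 1834 CPM against 643, 502 and 566 CPM, and Gpx1 held 4074, 4653 and 2766 CPM against 1736, 1470 and 1755 CPM. Cat (catalase) held 214, 202 and 232 CPM against 211, 218 and 197 CPM, with overlapping groups. Of 17 tested survival and death genes 1 rose and 1 fell, near the 6.78% and 6.27% of all tested genes. By adjusted p with all libraries, 1 was higher and 6 were lower, where 11.4% and 11.9% of all tested genes were. The rise was that of Bcl2l1, the survival factor of erythroblasts (162, 149 and 135 CPM against 80.7, 95.6 and 92.4 CPM).

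Genes outside these lists were among the largest changes. A total of 16 genes that rose had 0 counts in all empty vector libraries. Mybpc3, cardiac myosin-binding protein C (chromosome 2, 91118144 to 91136516), held 65.9, 46.4 and 63.5 CPM and was at least 849-fold higher on the floor of 3 counts over the group. Sult5a1, a sulfotransferase, was at least 129-fold higher, and the apolipoprotein L genes Apol8 and Apol11b, neighbours on chromosome 15, at least 91.2-fold and 87.0-fold. The butyrophilin-like gene Btnl10 (at least 65.9-fold), the bicarbonate carrier Slc4a5 (39.7-fold) and Prg2, an eosinophil granule protein (38.4-fold), followed on the same floor. In the other direction 1 gene with 0 wildtype counts fell, Haao, an enzyme of tryptophan breakdown, which had 18 counts with the empty vector.

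Further large rises were those of Nxpe2 (61.1, 59.8 and 72.5 CPM against 4.91, 3.70 and 2.77 CPM), Fhdc1, a formin-like actin protein (39.0, 29.3 and 33.1 CPM against 1.91, 2.31 and 2.06 CPM), and Gch1, GTP cyclohydrolase (13.7, 10.8 and 9.13 CPM against 0.733, 0.210 and 0.386 CPM). Dnah2, an axonemal dynein, rose by 5.41 ± 0.29 on the log2 scale. Among large falls, Lcp2, an adaptor of immune receptors whose promoter is printed above, held 10.8, 14.3 and 15.2 CPM against 62.0, 70.6 and 65.0 CPM. Tespa1, known from T cell receptor signalling, held 7.68, 13.9 and 9.84 CPM against 42.1, 38.2 and 44.5 CPM. Atp2a3, a calcium pump of the endoplasmic reticulum, held 26.5, 32.9 and 38.6 CPM against 102, 137 and 159 CPM. It and its neighbours P2rx1 and Camkk1 fell as 1 run on chromosome 11 (72961169 to 73042073).

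Such runs of at least 3 adjacent tested genes that changed in 1 direction numbered 22 among risen and 9 among fallen genes and held 107 genes. Beside the globin loci and the Stat genes they included Slc4a1, Rundc3a and Slc25a39 (chromosome 11, 102348824 to 102407946), Cnppd1, Zfand2b, Abcb6 and Atg9a (chromosome 1, 75134554 to 75192196), Csf2rb2, Csf2rb, Tst and Mpst (chromosome 15, 78282507 to 78414013) and Tusc2, Hyal2, Hyal1, Hyal3 and Ifrd2 (chromosome 9, 107563255 to 107593385). The counts keep no strand, so reads of overlapping neighbours cannot be told apart, and copies such as those of the longest run, 7 predicted genes on chromosome 12, can share reads. No comparison of these runs with chance was made.

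Risen and fallen genes also differed in structure. The median transcript length was 2858.5 bases for risen and 3780.5 bases for fallen genes, against 3303 bases for all tested genes with an annotation, and the median GC content was 52.3%, 50.1% and 49.4%. Long noncoding RNAs made 27 of the risen and 6 of the fallen genes, and 296 of all tested genes. These values describe the lists, and the counts of calls with offsets for length and GC content are given above.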

How the data were processed

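RNA of 9 G1E libraries was measured, and the authors deposited raw read counts of 27998 mouse rows and human GATA1 in 1 table. Reads were aligned with STAR to GRCm38.p4 and hg19, per the submitters' processing notes; which STAR version, counter and annotation they used is not given in the sources used here. Smart-seq2 and a Nextera-based step, which keep no strand, made the libraries, per the labels' protocols. Groups and replicate numbers came from the sample labels. The human GATA1 row was left out of the gene tests. A symbol was repeated on 65 rows, which were kept apart, and 12975 rows had 0 counts in all libraries.

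Genes were filtered by filterByExpr and 9978 entered the edgeR 4.0.16 test in R 4.3.3 (TMM, glmQLFit and glmQLFTest, 1 mean per group, 9 libraries, 6 residual degrees of freedom, Benjamini-Hochberg over all tested genes, threshold 0.05). Standard errors were derived from the fold change and its F-statistic and are approximate. What the p-values measure is the spread of these libraries, which may be technical. Intervals and floors (3 counts) cover counting error only: without molecular identifiers, reads can be copies of 1 molecule. Alternatives included DESeq2 1.42.0, RLE factors, other filters, fits with the replicate number as a block, the 6 libraries alone and offsets for length and GC content (97.0% of tested genes had both).

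Gene positions and lengths come from GENCODE M21 (GRCm38), where a symbol had 1 match, and promoters those of RefSeq (GRCm38.p6), matched by symbol; printed windows end before the first GENCODE start. The members of the comparison and the 31 gene lists were chosen with earlier results of these data known. Beside the genes listed for display, named genes were the 25 largest rises and falls among genes called in every fit with a mean of at least 5 CPM and no overlap, the 15 largest gains and losses in CPM, the 3 members of each list with the smallest p and the 10 highest genes with 0 counts in 1 group. Predicted genes, Rik clones and pseudogenes were left out of all but the first part. Other list members are named as those a count stands for. Some genes that fall under this rule are left out of the text.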

Additional observations from a re-analysis of the deposited data

How the results depend on the processing

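Of the 1303 genes that rose or fell, 1303 passed in the same direction with RLE factors, DESeq2, no filter on low counts, the block in 9 libraries or mutant replicates 1 and 2 summed, 1297 with only the 6 libraries, 1299 with length and GC offsets, 1137 with the replicate block in the 6 libraries and 1119 with a filter of 5 CPM in 3 libraries, which tested fewer genes; 0 passed in the opposite direction. Those counts rest on the adjusted p of 1 full fit per setting, for genes already chosen by the stricter rule. By the rule of every fit, 1257 kept their call with RLE factors, 1245 with DESeq2 and 1224 without the filter. The number was 1282 with length and GC offsets, 1105 with the 5 CPM filter and 1044 with the mutant replicates summed. It was 896 with only the 6 libraries, 851 with the block in 9 libraries and 470 with the block in 6. Leaving out 1 library, the 1137 higher genes ranged from 717 to 1609 and the 1186 lower genes from 700 to 1635. With length and GC offsets there were 1856 lower genes, 1139 rises and 1176 falls by the rule of every fit (677 and 626 otherwise), and 124 list members that fell (79 otherwise). With the 5 CPM filter 238 genes were lower by at least 2-fold (391 otherwise). With only the 6 libraries 379 genes fell. The cause of these differences was not tested. Deviations of same-numbered wildtype and empty vector libraries from their group means correlated at −0.222, −0.373 and −0.336, and those of other pairs at −0.119 to 0.41. Deviations from a mean of 3 libraries constrain each other, so these values cannot show whether the replicate numbers pair the libraries. With the replicate block in the 6 libraries there were 723 higher and 709 lower genes, 303 rises and 171 falls, of which 82 and 29 were list members (144 and 79 otherwise), and with the replicate block in 9 libraries there were 375 falls. Counting AGATAA alone, 14.5% of risen and 11% of fallen genes had a match, against 7.79% of tested genes, and with 1 promoter per gene 8.91% and 7.19%, against 6.04% of tested genes. For the 4 hexamers together, 24.5% of risen and 20.4% of fallen genes with 1 promoter had a match. Of the counts of risen or fallen members per list, 31 of 62 moved by over 1.5 times with the block in 6 libraries, among them the rises of the ubiquitin pathway (3 against 11), and 20 with length and GC offsets. Depth limits what can be said of genes near 0.264 CPM, the highest level that 3 counts reach in 1 of these libraries.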
